A study of Mus musculus with 11 samples.

Results

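The genes described here are 10 markers of the cells that line the liver's blood vessels, measured by mRNA sequencing of whole liver from mice given INT-767 or vehicle. They were taken from the deposited count table by symbol. Of these, 7 are used as markers of the sinusoidal endothelium (*Stab1*, *Stab2*, *Lyve1*, *Clec4g*, *Oit3*, *Ptprb* and *Kdr*) and 3 as markers of endothelium in general or of vessels other than sinusoids (*Pecam1*, *Vwf* and *Plvap*). All 10 were present among the 46603 genes of the table, and all 10 had enough counts to be among the 13880 genes that were tested.

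The sinusoids are the capillaries of the liver, and their endothelial cells are unlike those of other vessels. They are perforated by open pores, rest on little or no basement membrane, and take up hyaluronan, collagen fragments and other waste from the blood through scavenger receptors. In chronic liver injury these cells can lose their pores and scavenger receptors and gain features of ordinary vessels, a change called capillarization, which is why both kinds of marker are read together. INT-767 is a bile acid analog that activates the nuclear receptor FXR and the membrane receptor TGR5.

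All 11 mice were male and carried the *Lep* *ob/ob* genotype (B6.V-Lep ob/JRj), so that none of them made functional leptin. They were 5 to 6 weeks old when they were placed on the AMLN diet, which is rich in fat with trans-fat, in fructose and in cholesterol, for 15 weeks before treatment and during it. Each was biopsied at baseline, included only with steatosis and fibrosis on that biopsy, and housed alone afterwards. INT-767 was given by oral gavage at 10 mg/kg once a day for 8 weeks to 4 of the sequenced mice, and the 7 vehicle mice received the carboxymethyl cellulose solution in which the compound was dissolved. The genotype, the diet and the biopsy were thus common to both groups, no lean or chow-fed mouse is among these libraries, and how the 11 mice were picked for sequencing from larger treatment groups is not given in the sources used here. RNA came from the left lateral lobe, so that every value is an average over all cell types of that lobe.

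Total counts per library ranged from 7381211 in INT-767 mouse 3 to 16022459 in INT-767 mouse 1. Every marker was counted in every library, from 32 counts of *Vwf* in INT-767 mouse 2 to 1483 counts of *Stab1* in vehicle mouse 5. Levels are given as CPM, the counts scaled to a common library size with the TMM factors of edgeR. The hepatocyte gene *Alb* (albumin) was abundant in every library, as in liver tissue, at 43100 ± 4300 CPM with vehicle and 63900 ± 19500 CPM with INT-767 (SD, n = 7 and 4; log2 fold change 0.57, edgeR with Benjamini-Hochberg adjusted *p* = 0.0891), and the 24 pan-endothelial genes of a separate list all had enough counts to be tested.

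Some libraries stood apart from the others over genes in general. The length tilt of a library, which is the median log2 deviation of long transcripts (over 6 kb) minus that of short ones (1 to 3 kb) from the vehicle mean, was -0.33 in vehicle mouse 1, -0.35 in vehicle mouse 7, -0.71 in INT-767 mouse 2 and -0.78 in INT-767 mouse 4. In the other 7 libraries it lay between -0.06 and 0.29. The same 4 libraries had a GC tilt (transcripts over 55% GC minus those under 45%) of -0.69, -0.24, -0.62 and -0.63, where the other 7 had -0.28 to 0.36, and they lay lowest on the first principal component, which held 58.7% of the variance. Every marker is therefore given below with all 11 libraries and within each of these sets of libraries.

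Across the 10 markers, 8 had a lower and 2 a higher estimate with INT-767 than with vehicle, and their median log2 fold change was -0.52, beside -0.01 for all tested genes. With the GC content and length offset described below the markers' median was -0.33, and it was -0.33 in the 7 libraries of higher tilt and -0.28 in the 4 of lower tilt. For the 7 sinusoidal markers alone the median was -0.29, and 0.02 with the offset. For the 3 vascular markers it was -0.83, and -0.74 with the offset. By edgeR's quasi-likelihood test with Benjamini-Hochberg adjustment over all tested genes, *Vwf* was the only marker called, and it was lower. That is 1 of 10 markers called lower, where 4.68% of all tested genes were called lower, and 0 of 10 called higher, where 5.04% were. At an unadjusted *p* under 0.05, 5 of the 10 were lower (*Stab1*, *Stab2*, *Pecam1*, *Vwf* and *Plvap*) and none was higher, against 15.6% lower and 17.4% higher of all tested genes. No marker separated the groups completely, whereas 3.65% of tested genes had every INT-767 mouse below every vehicle mouse. In bulk tissue a lower level can mean fewer endothelial cells or less RNA of the gene per cell, and these cannot be told apart. DESeq2 called 3 markers lower and none higher, where it called 9.86% of all tested genes lower and 10.4% higher. Limma-voom called 1 lower and none higher, where it called 4.11% and 4.37% of all tested genes. By the exact Mann-Whitney test (two-sided) 3 markers passed 0.05, all lower, against 11.5% of all tested genes. With library size alone as the scaling, the median of all tested genes moved to -0.22, the calls over all genes went from 700 higher and 649 lower to 331 higher and 1026 lower, and 1 marker was called lower.

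**Figure D1:**
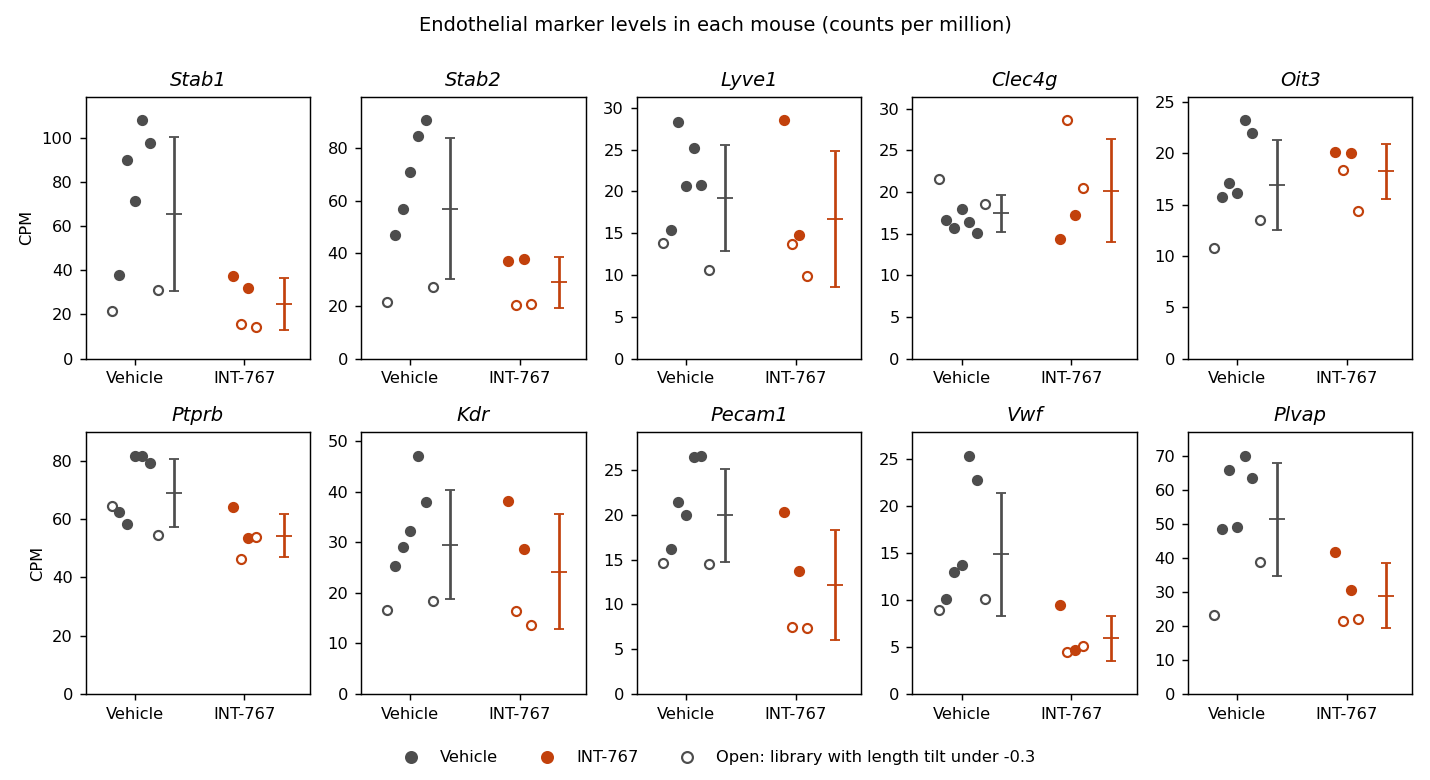
CPM (vertical axes, each from 0) of the 10 markers in 7 vehicle mice (grey) and 4 INT-767 mice (orange); each point is a mouse, bars are mean ± SD, and open points are the 4 libraries with a length tilt under -0.3. For *Stab1* the INT-767 mice lie between 14.2 and 37.6 CPM and the vehicle mice between 21.6 and 108, and the open points are the lowest of each group.

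*Stab1* and *Stab2* encode the stabilins, large scavenger receptors of the sinusoidal surface. *Stab2* is the main receptor that clears hyaluronan from the blood. Both genes varied more between vehicle mice than any other marker, by 5-fold for *Stab1* and by 4.2-fold for *Stab2* from the lowest to the highest mouse.

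*Stab1* (chromosome 14, 31139013 to 31168641, minus strand, GRCm38) ranged from 21.6 to 108 CPM with vehicle, with a median of 71.5. With INT-767 the values were 37.6, 15.6, 32.2 and 14.2 CPM in mice 1 to 4. All 4 INT-767 mice lay below the vehicle median and 2 of them below every vehicle mouse, while vehicle mice 1 and 7, at 21.6 and 31.1 CPM, lay within the INT-767 range. The vehicle mean was 65.4 ± 35.0 CPM (SD, n = 7), and that of the treated mice was 24.9 ± 11.8 CPM (SD, n = 4). The log2 fold change was -1.39 (SE 0.47), with an adjusted *p* of 0.0739 by edgeR's quasi-likelihood test with Benjamini-Hochberg adjustment, which does not pass the threshold of 0.05. Read counts were not known to be strand-specific, and 1.09% of its exon bases overlap *Nt5dc2* on the opposite strand.

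*Stab2* (chromosome 10, 86841198 to 87008025, minus strand, GRCm38) ranged from 21.6 to 90.5 CPM with vehicle around a median of 56.9. In INT-767 mice 1 to 4 it was 36.9, 20.3, 38.0 and 20.9 CPM. Its order of mice resembled that of *Stab1*: vehicle mice 1 and 7 were the lowest of their group for both genes, and INT-767 mice 2 and 4 were the lowest of theirs. The log2 fold change was -0.97 (SE 0.39, edgeR with Benjamini-Hochberg adjusted *p* = 0.110). When an offset took out how each library drifted with GC content and transcript length, *Stab1* had a log2 fold change of -0.84 and *Stab2* of -0.43. The adjusted *p* by edgeR with that offset was 0.0606 for *Stab1* and 0.168 for *Stab2*.

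The bases before the gene start were available from RefSeq (GRCm38.p6) for 4 of the 10 markers, and they are shown so that *Stab1* and *Stab2*, whose low mice were the same, can be set beside *Kdr*, which had the same low mice, and *Clec4g*, which did not. The other markers are *Lyve1*, *Oit3*, *Ptprb*, *Pecam1*, *Vwf* and *Plvap*. Each run holds 150 bases, 5′ to 3′ on the gene's own strand, and ends at the base before the first exon in the GENCODE annotation. The gene start in RefSeq differs from that of GENCODE by 83 bases for *Stab2* and by 3 bases for *Kdr*. Capitals mark the 4-letter core GGAA of the ETS factors, which include endothelial regulators such as *Erg*, on either strand (TTCC on the strand shown). The positions are chr14:31168642-31168791 for *Stab1*, chr10:87008026-87008175 for *Stab2*, chr8:3720652-3720801 for *Clec4g* and chr5:75978459-75978608 for *Kdr*, all on the minus strand.
Stab1: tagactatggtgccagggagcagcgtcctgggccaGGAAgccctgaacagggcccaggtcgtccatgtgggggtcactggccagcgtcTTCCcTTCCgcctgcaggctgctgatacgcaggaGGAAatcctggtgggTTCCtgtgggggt
Stab2: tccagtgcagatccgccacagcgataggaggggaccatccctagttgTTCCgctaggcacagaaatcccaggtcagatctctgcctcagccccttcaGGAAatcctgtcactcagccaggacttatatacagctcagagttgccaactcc
Clec4g: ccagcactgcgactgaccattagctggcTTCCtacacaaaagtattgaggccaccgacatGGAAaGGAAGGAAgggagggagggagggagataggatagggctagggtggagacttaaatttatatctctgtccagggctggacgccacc
Kdr: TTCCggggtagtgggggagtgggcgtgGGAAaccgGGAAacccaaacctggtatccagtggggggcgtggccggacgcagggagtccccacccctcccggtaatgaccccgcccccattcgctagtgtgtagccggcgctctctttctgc

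The GGAA core occurred 5 times before *Stab1*, 2 times before *Stab2*, 4 times before *Clec4g* and 3 times before *Kdr*. It was found in 80.8% of 32851 promoter windows of 150 bases, with a median of 2 matches. The longer motif AGATAA, bound by GATA factors such as the sinusoidal regulator *Gata4*, was in none of the 4 windows on either strand and in 5.65% of all windows. Only this exact spelling was searched, so that other forms of a GATA site are not excluded. The windows over all promoters end at the RefSeq start and not at that of GENCODE. The nuclear receptor half-site AGGTCA was present once before *Stab2*, in none of the other 3 windows and in 8.58% of all windows. GC content was 64.0% for *Stab1*, 54.7% for *Stab2*, 53.3% for *Clec4g* and 66.7% for *Kdr*, with a median of 54.0% over all windows. None of the 3 motifs is contained in another. A match is a description of the sequence and not a bound site.

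The other sinusoidal markers had estimates nearer to 0 than the stabilins. *Lyve1* (chromosome 7, 110850607 to 110863239, minus strand) encodes a hyaluronan receptor that sinusoidal cells share with lymphatic vessels. It ranged from 10.6 to 28.3 CPM with vehicle (median 20.7) and was 28.5, 13.7, 14.8 and 9.89 CPM in INT-767 mice 1 to 4. The highest and the lowest of the 11 mice were thus both INT-767 mice, and the groups overlapped over almost their whole range. Its estimate was a log2 fold change of -0.20 with a 95% interval from -0.81 to 0.42.

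*Clec4g* (chromosome 8, 3707064 to 3720651, minus strand) encodes LSECtin, a lectin of the sinusoidal surface. Its vehicle values lay close together, from 15.1 to 21.6 CPM with a median of 16.6, and INT-767 mice 1 to 4 had 14.4, 28.6, 17.2 and 20.5 CPM. The INT-767 mice included both the lowest and the highest value, and in contrast to the stabilins the libraries of low length tilt were the higher ones of each group. A log2 fold change of 0.21 resulted (95% interval -0.15 to 0.57), and it was -0.02 with library size alone as the scaling. An opposite-strand gene, *Gm16553*, covers 5.93% of its exon bases, so that its counts may hold reads of that gene.

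*Oit3* (chromosome 10, 59422958 to 59441778, minus strand) encodes a zona pellucida domain protein made in the liver, where it marks sinusoidal cells. It ranged from 10.8 to 23.2 CPM with vehicle (median 16.1) and was 20.1, 18.4, 20 and 14.4 CPM in INT-767 mice 1 to 4. All INT-767 values fell within the vehicle range. Between the groups it differed by a log2 fold change of 0.10, with a 95% interval from -0.30 to 0.51, and it was -0.11 with library size alone.

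*Ptprb* and *Kdr* belong to the signalling side of the endothelium. *Ptprb* (chromosome 10, 116275523 to 116389535, plus strand) encodes VE-PTP, a phosphatase that restrains the angiopoietin receptor *Tek* and holds cell junctions together. It was 54.5 to 81.7 CPM with vehicle, with a median of 64.5, and 64.0, 46.2, 53.4 and 53.7 CPM in INT-767 mice 1 to 4. In 3 of the 4 INT-767 mice it lay below every vehicle mouse, and INT-767 mouse 1 lay near the vehicle median. Between the groups, the log2 fold change was -0.34 (SE 0.16, edgeR with Benjamini-Hochberg adjusted *p* = 0.153), and the exact Mann-Whitney test (two-sided, 330 assignments) gave a *p* of 0.0424. With the GC content and length offset the estimate was 0.18, so that its direction depended on that correction.

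*Kdr* (chromosome 5, 75932827 to 75978458, minus strand) encodes the main receptor for VEGF-A on endothelial cells. Vehicle values spread from 16.6 to 47.1 CPM around a median of 29.0, and INT-767 mice 1 to 4 had 38.2, 16.4, 28.6 and 13.6 CPM. INT-767 mice 2 and 4 lay below every vehicle mouse and mouse 1 lay above all but vehicle mouse 5. The lowest mice of each group were those of the stabilins, vehicle mice 1 and 7 and INT-767 mice 2 and 4. Its log2 fold change was -0.29 (95% interval -0.93 to 0.36), and 0.02 with the GC content and length offset.

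Of the markers of vessels in general, *Vwf* had the lowest *p* of the 10. *Vwf* (chromosome 6, 125546774 to 125686679, plus strand) encodes von Willebrand factor, which tethers platelets and carries factor VIII. It is made by the endothelium of larger vessels, and also by megakaryocytes, and is scarce in normal sinusoids. The vehicle mice had 8.88 to 25.3 CPM (median 13), and INT-767 mice 1 to 4 had 9.47, 4.42, 4.65 and 5.10 CPM. The groups touched only through INT-767 mouse 1, which lay above vehicle mouse 1 and below the other 6 vehicle mice. The vehicle mean was 14.8 ± 6.54 CPM (SD, n = 7), and that of the treated mice was 5.91 ± 2.39 CPM (SD, n = 4).

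The log2 fold change of *Vwf* was -1.31 (SE 0.35), a level 0.404 times that of vehicle, with an adjusted *p* of 0.0360 by edgeR's quasi-likelihood test with Benjamini-Hochberg adjustment. By the exact Mann-Whitney test (two-sided) *p* was 0.0121, where 0.00606 is the smallest value that 4 of 11 mice allow. *Vwf* ranked 971 by *p* among the 13880 tested genes. The call was lost without any of INT-767 mice 2, 3 or 4 (adjusted *p* of 0.136, 0.0667 and 0.0865) and without any of vehicle mice 3, 4, 5 or 6 (adjusted *p* of 0.0556, 0.0585, 0.0638 and 0.0706) in edgeR's test with Benjamini-Hochberg adjustment. With the GC content and length offset the log2 fold change was -0.74 and the adjusted *p* by edgeR 0.0438.

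*Pecam1* (chromosome 11, 106654217 to 106750628, minus strand) encodes the junctional adhesion protein also known as CD31, which is found on all endothelium and on platelets and some leukocytes. It was 14.5 to 26.6 CPM with vehicle (median 20) and 20.3, 7.46, 13.7 and 7.34 CPM in INT-767 mice 1 to 4. INT-767 mice 2, 3 and 4 lay below every vehicle mouse and mouse 1 lay just above the vehicle median. Its log2 fold change was -0.70 (SE 0.30, edgeR with Benjamini-Hochberg adjusted *p* = 0.128), and -0.55 with the GC content and length offset.

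*Plvap* (chromosome 8, 71497765 to 71511752, minus strand) encodes the protein that forms the diaphragms across endothelial pores and caveolae, and mature sinusoidal pores lack them. Vehicle mice ranged from 23.1 to 70 CPM with a median of 49.2, and INT-767 mice 1 to 4 had 41.8, 21.4, 30.6 and 21.9 CPM. All 4 INT-767 mice lay below the vehicle median, and vehicle mice 1 and 7 lay within the INT-767 range. The log2 fold change was -0.83 (SE 0.29, edgeR with Benjamini-Hochberg adjusted *p* = 0.0844), and the exact two-sided Mann-Whitney *p* was 0.0424. *Plvap* kept most of its estimate under the GC content and length offset, at -0.75.

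**Figure D2:**
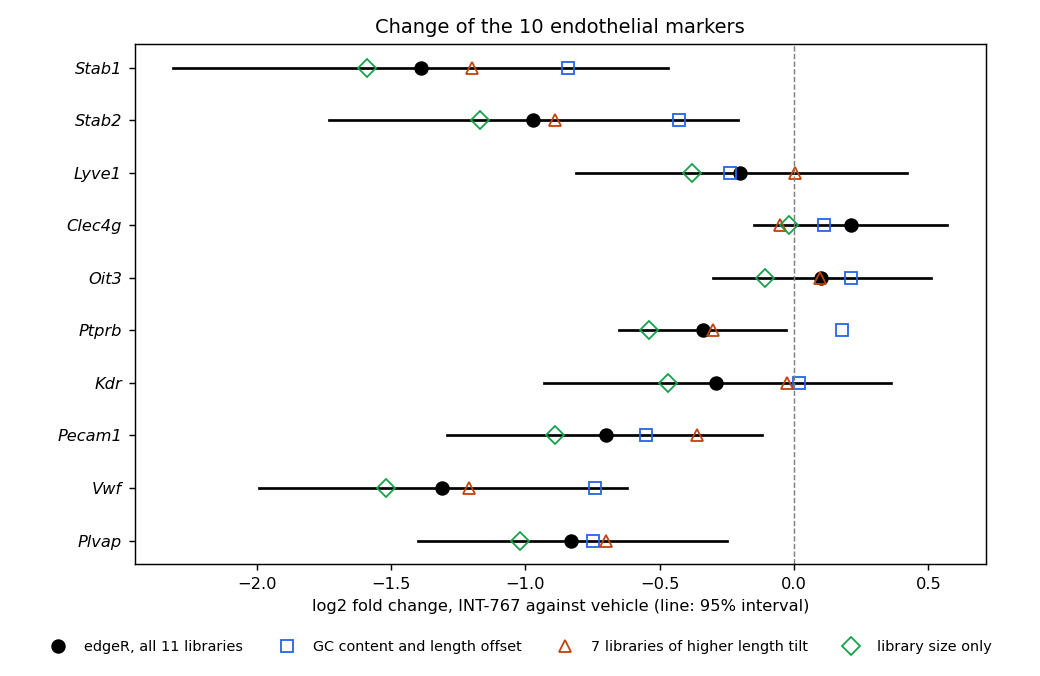
Log2 fold change of each marker, INT-767 against vehicle (horizontal axis), by edgeR with all 11 libraries (black, with 95% interval) and under 3 other settings (open symbols). *Vwf* and *Stab1* have the lowest estimates, -1.31 and -1.39, and the offset (blue squares) moves *Stab1* to -0.84, *Stab2* to -0.43 and *Ptprb* to 0.18.

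Most markers shared their high and low mice, and *Clec4g* did not. Vehicle mouse 5 was the highest of all 11 mice for 6 of the 10 markers and vehicle mouse 6 for 2. INT-767 mice 2 and 4 were each the lowest for 4 markers. The summed level of the 7 sinusoidal markers was 170, 221, 295, 311, 386, 363 and 174 CPM in vehicle mice 1 to 7 and 240, 159, 204 and 147 CPM in INT-767 mice 1 to 4. The 3 vascular markers together had 46.5, 74.7, 100, 82.9, 122, 113 and 63.6 CPM with vehicle and 71.6, 33.3, 48.9 and 34.3 CPM with INT-767. The 4 libraries of low length tilt held the 4 lowest sums of the sinusoidal markers, and the part of the tilt in the group difference was not tested beyond the offset and the library sets given here.

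**Figure D3:**
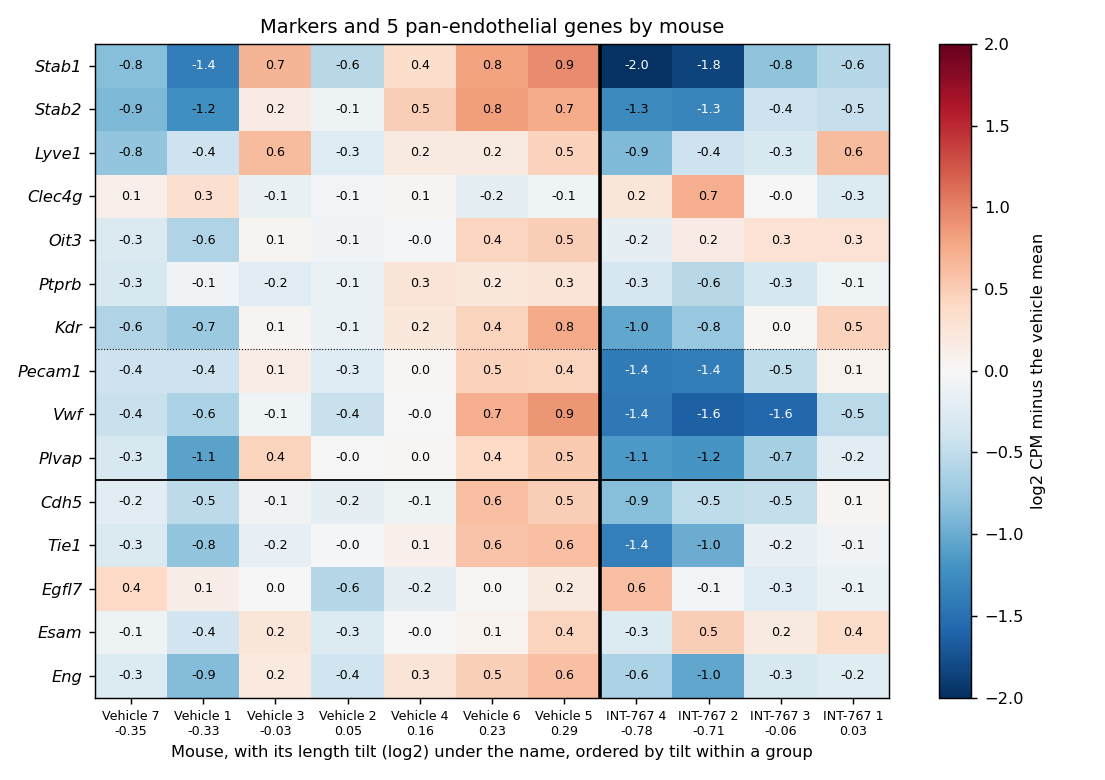
Log2 CPM minus the vehicle mean (color and printed value) of the 10 markers and 5 pan-endothelial genes (rows) in each mouse (columns, ordered by length tilt within vehicle, left, and INT-767, right). INT-767 mice 4 and 2, with length tilts of -0.78 and -0.71, show the deepest values for *Stab1*, *Kdr*, *Pecam1* and *Plvap*, and *Clec4g* runs the other way.

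Within the library sets the markers differed from one another. Among the 7 libraries of higher tilt (5 vehicle, 2 INT-767), *Stab1* was 38.1 to 108 CPM with vehicle and 32.2 to 37.6 CPM with INT-767. Among the 4 of lower tilt (2 of each group) it was 21.6 to 31.1 CPM and 14.2 to 15.6 CPM. The INT-767 mice lay below the vehicle mice in both sets. The sets do not hold the tilt fixed, since in the set of lower tilt the INT-767 libraries had length tilts of -0.71 and -0.78 and the vehicle libraries -0.33 and -0.35, so that tilt and treatment cannot be told apart there.

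The same held for *Stab2*, *Vwf* and *Plvap*. *Stab2* was 47.1 to 90.5 against 36.9 to 38.0 CPM in the set of higher tilt and 21.6 to 27.0 against 20.3 to 20.9 CPM in the set of lower tilt, a narrow gap. *Vwf* was 10.1 to 25.3 against 4.65 to 9.47 CPM and 8.88 to 10.1 against 4.42 to 5.10 CPM. *Plvap* was 48.4 to 70 against 30.6 to 41.8 CPM and 23.1 to 38.9 against 21.4 to 21.9 CPM. These are 4 of the 10 markers, where 9.89% of all tested genes lay lower without overlap in both sets, a description of sets that differ in tilt between the groups.

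For *Pecam1*, *Ptprb* and *Kdr* the INT-767 mice lay below the vehicle mice in the set of lower tilt and overlapped them in the set of higher tilt. *Pecam1* was 16.2 to 26.6 against 13.7 to 20.3 CPM in the set of higher tilt and 14.5 to 14.6 against 7.34 to 7.46 CPM in the set of lower tilt (log2 fold changes -0.36 and -1.01). *Ptprb* was 58.2 to 81.7 against 53.4 to 64.0 CPM and 54.5 to 64.5 against 46.2 to 53.7 CPM (-0.30 and -0.29). *Kdr* was 25.3 to 47.1 against 28.6 to 38.2 CPM and 16.6 to 18.4 against 13.6 to 16.4 CPM (-0.03 and -0.27). The 3 remaining markers were not lower without overlap in any set. The estimates in the sets of higher and lower tilt were 0.00 and -0.08 for *Lyve1*, -0.05 and 0.25 for *Clec4g* and 0.10 and 0.38 for *Oit3*, and in the set of lower tilt *Oit3* was higher without overlap (14.4 to 18.4 against 10.8 to 13.5 CPM). How many of all tested genes separated in the set of lower tilt alone was not counted. Separation of 2 mice from 2 is therefore a description of these values and not a result about the markers.

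In the 7 libraries of higher tilt edgeR's quasi-likelihood test with Benjamini-Hochberg adjustment called *Stab2* (log2 fold change -0.89, adjusted *p* = 0.0323) and *Plvap* (-0.70, adjusted *p* = 0.0356), where 6.12% of the genes tested there were called lower and 5.96% higher. It did not call *Vwf* there (-1.21, adjusted *p* = 0.0867) or *Stab1* (-1.2, adjusted *p* = 0.0608). In the set of lower tilt *Stab1*, *Stab2*, *Vwf* and *Plvap* had log2 fold changes of -0.87, -0.28, -1.03 and -0.57. The 4 libraries of lower tilt gave no marker call, and 3 markers had an unadjusted *p* under 0.05, all lower, where 11.1% of the genes tested there were lower and 9.73% higher. This split was chosen after the tilt had been seen, and each set holds only 2 INT-767 mice.

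Each marker was also set against the mean log2 CPM of 5 genes used across endothelium: *Cdh5* (VE-cadherin), *Tie1*, *Egfl7*, *Esam* and *Eng* (endoglin). That mean itself was 4.52 ± 0.33 (SD, n = 7) in the vehicle mice, and in the treated mice it was 4.24 ± 0.22 (SD, n = 4). Relative to it, *Stab1* and *Vwf* were each lower by 1.01 on the log2 scale with INT-767, *Stab2* by 0.58, and *Pecam1* and *Plvap* each by 0.52. *Lyve1*, *Ptprb* and *Kdr* stood within 0.05 of their vehicle means, at 0.04, -0.05 and -0.04. *Clec4g* was higher by 0.46 and *Oit3* by 0.42. The 5 genes do not stand for endothelial RNA as a whole. Their mean was lower by 0.28 with INT-767, where the 24 pan-endothelial genes had a median log2 fold change of -0.09.

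On this relative scale the groups separated for *Vwf* and *Oit3*, in opposite directions, where 2.33% of all tested genes separated as lower and 2.49% as higher. *Vwf* lay between -1.09 and -0.33 in the vehicle mice and between -2.10 and -1.28 in the INT-767 mice. *Oit3* lay between -0.67 and -0.26 with vehicle and between -0.19 and 0.10 with INT-767. These are descriptions without a test, and the reference genes did not all move alike: *Tie1*, *Eng* and *Cdh5* had log2 fold changes of -0.62, -0.60 and -0.46 and *Egfl7* and *Esam* of 0.05 and 0.19, none of them called. With library size alone as the scaling, *Egfl7* was -0.18 and *Esam* -0.03. The relative scale does not take out the tilt, since the longest transcript of *Vwf* has 8.834 kb and that of *Esam* 1.865 kb.

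**Figure D4:**
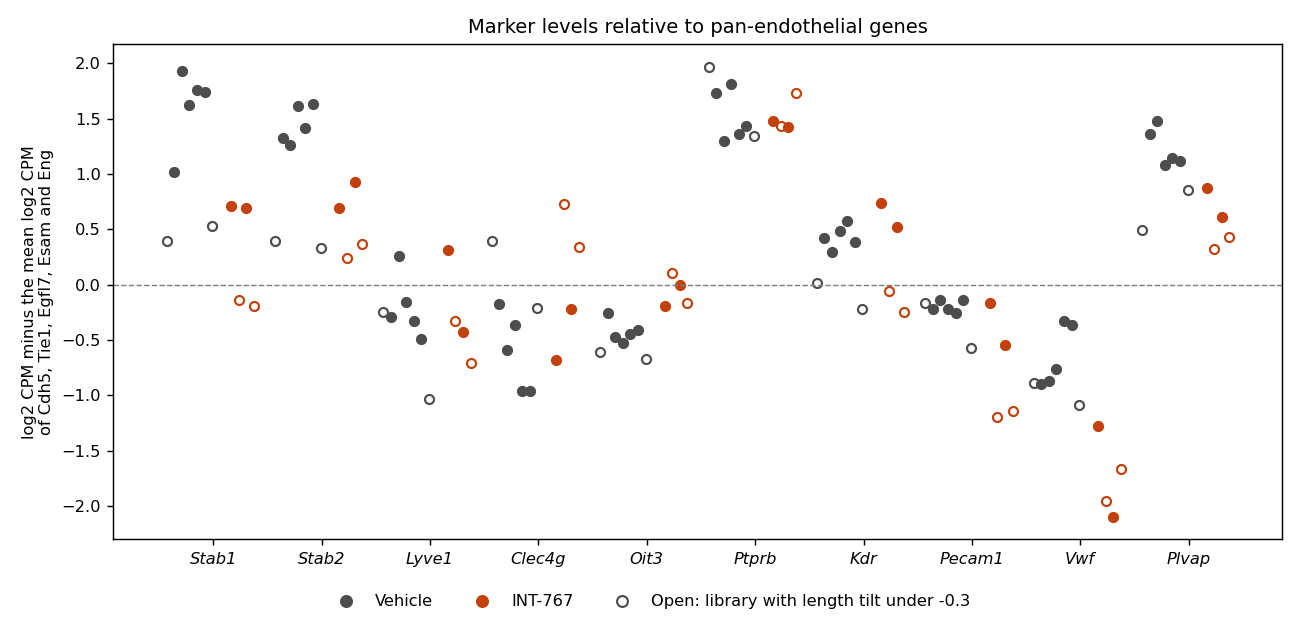
Log2 CPM of each marker minus the mean log2 CPM of *Cdh5*, *Tie1*, *Egfl7*, *Esam* and *Eng* (vertical axis) in each vehicle (grey) and INT-767 mouse (orange); open points are libraries with a length tilt under -0.3. All INT-767 points of *Vwf* lie below the vehicle points (highest -1.28 against lowest -1.09), and all of *Oit3* lie above them (lowest -0.19 against highest -0.26).

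Per kilobase of merged exons, the level of *Plvap* in the vehicle mice was the highest, at 25.8 ± 8.41 CPM per kb (SD, n = 7). *Clec4g* (7.08 ± 0.893), *Lyve1* (6.60 ± 2.17), *Stab2* (6.5 ± 3.06), *Stab1* (6.36 ± 3.40), *Oit3* (6.06 ± 1.58) and *Ptprb* (5.16 ± 0.874 CPM per kb) came next, and no neighbours in that order differed by more than the larger of their SDs. *Kdr* and *Pecam1* followed at 3.27 ± 1.19 and 3.21 ± 0.834 CPM per kb, and *Vwf* was the lowest at 0.923 ± 0.407 CPM per kb. With INT-767 the order of the sinusoidal markers was *Clec4g* (8.18 ± 2.5), *Oit3* (6.53 ± 0.956), *Lyve1* (5.72 ± 2.78), *Ptprb* (4.07 ± 0.55), *Stab2* (3.32 ± 1.11), *Kdr* (2.68 ± 1.26) and *Stab1* (2.42 ± 1.14 CPM per kb; SD, n = 4). The stabilins thus stood beside *Kdr*, where with vehicle they stood between *Lyve1* and *Oit3*. Here too no neighbours differed by more than the larger of their SDs. These are levels on the CPM per kb scale, and merged exons can overstate the length of the transcript that is actually made.

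The markers differ in transcript length and base composition. The longest transcripts of *Stab1*, *Stab2* and *Vwf* have 7999, 8228 and 8834 bases at 57.3%, 51.7% and 56.5% GC. *Clec4g*, *Oit3* and *Lyve1*, with estimates near 0, have 1442, 2717 and 2893 bases at 51.5%, 50.8% and 45.8% GC. Of all tested genes, the 613 with transcripts over 6 kb and over 50% GC had a median log2 fold change of -0.81, and 10.6% of them were called lower. The 1291 genes over 6 kb at or under 50% GC had a median of -0.06, and *Ptprb*, with 11911 bases at 47.6% GC, belongs to these. *Plvap*, at 1987 bases and 60.6% GC, is short and GC-rich, and its -0.83 may be set beside the median of -0.21 for the 2903 genes over 55% GC. Which part of the markers' difference goes with length and GC content was not tested beyond the offset.

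**Figure D5:**
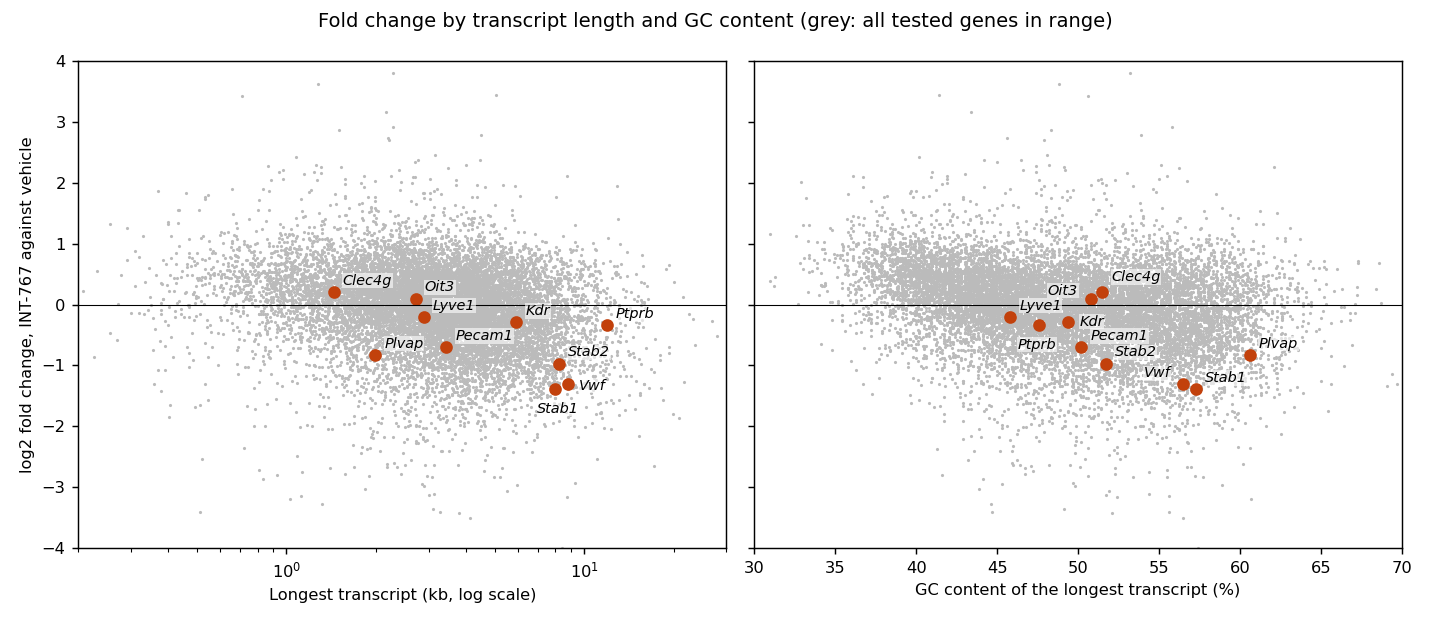
Log2 fold change (vertical axis) of all tested genes in range (grey) and the 10 markers (orange) against the length of the longest transcript in kb on a log axis (left) and its GC content in percent (right). *Stab1*, *Stab2* and *Vwf* lie together at long transcripts and low fold changes, and *Clec4g*, *Oit3* and *Lyve1* at short transcripts near 0.

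Among all tested genes outside the lists, those whose log2 CPM over the 11 mice was most like that of *Stab2* were *2900005J15Rik* (Pearson r = 0.991), *Dock1* (0.986) and *Soga1* (0.985). For *Pecam1* they were *Scd2* (0.989), *Swap70* (0.988) and *Fyn* (0.985). The tilt differs between libraries and is shared by many genes of a library, so these values describe a common mouse-to-mouse pattern. None of the 6 genes was called between the groups.

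The 20 other sinusoidal genes, of which 19 were tested, had estimates on both sides of 0. Their median log2 fold change was 0.07 (0.22 with the offset), 8 of 19 were below 0, 0 were called lower and 3 were called higher, where 5.04% of all tested genes were called higher. These 3 were *Aass*, *Dpp4* and *Tfpi2*. *Aass*, an enzyme of lysine breakdown, had 242 ± 48.5 CPM with vehicle and 478 ± 71.7 CPM with INT-767, *Dpp4*, a peptidase, 117 ± 22.9 and 215 ± 43.3 CPM, and *Tfpi2*, a protease inhibitor, 36.1 ± 12.4 and 77.2 ± 21.9 CPM (SD, n = 7 and 4). These 3 are also made by hepatocytes, and *Aass* alone held 37.3% of the list's summed level. The other 16 estimates ran from -1.07 for *Flt4*, a VEGF receptor of sinusoidal and lymphatic cells (edgeR with Benjamini-Hochberg adjusted *p* = 0.148), to 1.14 for *Wnt2*, a Wnt ligand (adjusted *p* by edgeR 0.113). Among them, and chosen after their values were seen, *Fcgr2b*, the Fc receptor of sinusoidal cells, was -0.16, *Mrc1*, the mannose receptor, -0.19, and *Gpr182* -0.11. At an unadjusted *p* under 0.05 by edgeR, 2 of the 19 were lower and 6 higher, where 15.6% and 17.4% of all tested genes were. DESeq2 called 4 higher and 0 lower, where it called 10.4% and 9.86% of all tested genes. Limma-voom called 3 higher and 0 lower, where it called 4.37% and 4.11%. *Cd209b* was at or near 0, with 2 counts over all vehicle libraries and 3 over all INT-767 libraries.

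Of the 24 pan-endothelial genes, 12 had an estimate below 0, the median was -0.09, and edgeR called none without the offset. With the offset the median was -0.11, and edgeR called 1 higher. At an unadjusted *p* under 0.05, 5 were lower and 1 was higher, where 15.6% and 17.4% of all tested genes were. DESeq2 called 1 higher, where it called 10.4% of all tested genes higher, and limma-voom called none. The most abundant was *Eng*, with 70.3 ± 23.5 CPM with vehicle and 46.5 ± 11 CPM with INT-767 (log2 fold change -0.60, edgeR with Benjamini-Hochberg adjusted *p* = 0.147). *S1pr1*, a receptor that stabilizes endothelial junctions, had 26.0 ± 2.45 and 36.5 ± 10.6 CPM (log2 fold change 0.49, adjusted *p* by edgeR 0.0825). The summed level of the list was 239, 259, 301, 307, 393, 361 and 276 CPM in vehicle mice 1 to 7 and 308, 248, 264 and 235 CPM in INT-767 mice 1 to 4, so that the groups overlapped.

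In the list for capillarization and activated endothelium, 6 of 20 tested genes were called lower, where 4.68% of all tested genes were, and 0 higher. The median log2 fold change was -0.67, and 16 of the 20 were below 0. The genes called were *Icam1* (29.8 ± 5.02 CPM with vehicle and 17 ± 2.06 with INT-767), *Cd9* (52.2 ± 6.92 and 30.9 ± 6.13), *Col4a1* (125 ± 31.4 and 51.2 ± 22.3), *Col15a1* (26.8 ± 10.8 and 10.1 ± 3.74), *Nid1* (97.5 ± 20.9 and 49.5 ± 18.0) and *Lamb1* (24.8 ± 6.30 and 14.5 ± 2.46 CPM; SD, n = 7 and 4). All 6 separated the groups completely, with every INT-767 mouse below every vehicle mouse, as in 3.65% of all tested genes. *Col4a1*, *Col15a1*, *Nid1* and *Lamb1* encode basement membrane proteins that stellate cells also make, and basement membrane genes are the subject of the study itself, so that this count is not independent evidence of direction. *Icam1*, an adhesion molecule for leukocytes, and *Cd9*, a tetraspanin that the macrophage list below also holds, are made by macrophages too. The 14 genes not called ran from *Col4a2* (log2 fold change -1.65, edgeR with Benjamini-Hochberg adjusted *p* = 0.0534) to *Cav1* (0.45, adjusted *p* by edgeR 0.277). Among them, and chosen after their values were seen, *Cd34* was at 14.2 ± 6.17 and 14.9 ± 5.12 CPM, and *Fabp4*, which macrophages also make, was at 64.0 ± 15.4 and 42.4 ± 24.9 CPM.

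Signals that act on the endothelium gave 3 calls, all lower, among 13 tested VEGF and angiopoietin genes, where 4.68% of all tested genes were called lower. *Vegfc*, a ligand of *Flt4* and *Kdr*, had 7.75 ± 0.420 CPM with vehicle and 4.90 ± 0.398 CPM with INT-767. The co-receptors *Nrp1* and *Nrp2* had 81.8 ± 9.19 and 51.5 ± 11.5 CPM and 30.1 ± 8.89 and 13.5 ± 2.80 CPM (SD, n = 7 and 4). For all 3 every INT-767 mouse lay below every vehicle mouse, as in 3.65% of all tested genes, and the log2 fold changes were -0.67 for *Vegfc*, -0.67 for *Nrp1* and -1.15 for *Nrp2*. *Vegfa*, the chief ligand of *Kdr*, was at 176 ± 110 and 174 ± 27.4 CPM, and *Angpt2* at 3.40 ± 1.23 and 1.90 ± 0.764 CPM (adjusted *p* by edgeR 0.143). The list's median was -0.54, and -0.33 with the offset.

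The remaining vessel lists had no call by edgeR without the offset. Their counts at an unadjusted *p* under 0.05 stand beside 15.6% lower and 17.4% higher of all tested genes. Arterial and venous genes had 13 tested, a median of -0.32 and 3 at an unadjusted *p* under 0.05, all lower, with *Clu*, which hepatocytes also make, holding 91.6% of their sum and *Nr2f2* next (55.3 ± 10.7 and 49.1 ± 7.73 CPM). Only 3 of 6 lymphatic genes were tested, 1 of them lower at an unadjusted *p* under 0.05. These were *Prox1*, which hepatocytes also express (132 ± 18.7 and 156 ± 19.1 CPM), *Reln* (112 ± 44.2 and 69.1 ± 23.1 CPM) and *Thy1*, and *Ccl21a* was at 0 counts in every library. Of 7 tested hyaluronan genes, with a median of -0.52, 2 were lower at an unadjusted *p* under 0.05, and *Hyal2* (57.2 ± 18.1 and 76.8 ± 34.2 CPM) was the most abundant ahead of *Cd44* (41.6 ± 5.55 and 26.1 ± 11.7 CPM). Among 8 partners of *Vwf* in coagulation and clearance, *F8*, the factor that *Vwf* carries, was at 15.6 ± 3.99 and 23.5 ± 8.16 CPM (log2 fold change 0.59, adjusted *p* by edgeR 0.115), opposite in sign to *Vwf*. *Adamts13*, which cleaves *Vwf*, was at 5.42 ± 2.66 and 6.46 ± 1.05 CPM. *Tfpi*, an inhibitor of the start of coagulation, was at 12.4 ± 3.04 and 12.3 ± 3.51 CPM. In this list 6 of the 8 genes had an estimate below 0, and the median was -0.36. At an unadjusted *p* under 0.05, 1 gene was lower and 1 higher, and *F8* made up 32.8% of the list's sum. DESeq2 called 1 gene lower in the arterial and venous, hyaluronan and coagulation lists each and 0 in the lymphatic list, where it called 9.86% of all tested genes lower. Limma-voom called 1 lower in the coagulation list and 0 in the other 3, where it called 4.11% of all tested genes lower. With the offset the median was -0.10 for the arterial and venous and -0.09 for the lymphatic genes, where it had been -0.70 for the latter. EdgeR with the offset called 1 lymphatic gene higher and 0 genes of the other 3 lists.

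Genes of other cell types were read in the same mice. Myofibroblast genes had a median of -0.97, with 3 of 10 called lower (*Loxl2*, *Col1a2* and *Col1a1*) beside 4.68% of all tested genes. Their summed level was 446, 385, 661, 661, 1230, 1100 and 348 CPM in vehicle mice 1 to 7 and 210, 96.0, 226 and 356 CPM in INT-767 mice 1 to 4, with *Col3a1* the most abundant. Vehicle mice 5 and 6, the highest for *Stab1*, *Vwf* and *Pecam1*, were also the highest for these. Macrophage genes other than Kupffer markers had a median of -0.76, with 4 of 11 called lower (*Csf1r*, *Itgam*, *Cd68* and *Cd9*) against the same 4.68%. Their sum was 2670, 1260, 1290, 1330, 1490, 1560 and 2230 CPM with vehicle and 710, 827, 1110 and 1970 CPM with INT-767, and *Spp1*, which the cholangiocyte list also holds, made up 60.2% of it. *Spp1* itself was highest in vehicle mouse 1 (1860 CPM), vehicle mouse 7 (1410) and INT-767 mouse 4 (1310), which were low in *Stab1* and *Stab2*. INT-767 mouse 2, also low in both, had 558 CPM of *Spp1*, below every vehicle mouse. The called *Csf1r*, *Itgam* and *Cd68* ran opposite to *Spp1* among the vehicle mice, lowest in mouse 1 (72.9, 7.86 and 21.3 CPM) and highest in mice 5 and 6 (133 and 130, 13.4 and 15.6, 34.1 and 35.2 CPM). The called *Cd9* did not, and was highest in vehicle mice 1 and 7 (62.6 and 57.9 CPM) and lowest in vehicle mouse 4 (43.7 CPM). No gene of either list was at 0 in all libraries. The part of these cells in the markers' levels was not tested.

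The summed level of 11 hepatocyte genes, of which *Alb* made up 57.4%, was 69300 to 92600 CPM (median 74300) in the vehicle mice and 117000, 127000, 104000 and 86400 CPM in INT-767 mice 1 to 4. The groups overlapped only between vehicle mouse 2 and INT-767 mouse 4, and the part of this difference in the markers' CPM was not tested.

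The further lists had at most 2 calls each by edgeR without the offset. Kupffer cell genes had *C6* called lower (68.3 ± 14.3 and 22.0 ± 7.46 CPM) and *Slc40a1* called higher (141 ± 40.9 and 242 ± 45.4 CPM) among 8, with a median of -0.54, and smooth muscle and pericyte genes had *Pdgfrb* called lower among 5 tested, with a median of -0.75. Over all tested genes 4.68% were called lower and 5.04% higher. With the GC content and length offset the median was -0.81 for the Kupffer list and -0.30 for the smooth muscle list. EdgeR with the offset called 1 higher and 2 lower in the former and 1 lower in the latter. Quiescent stellate cell genes had a median of 0.04, hepatocyte genes 0.17, erythroid genes 0.12, lymphocyte genes -0.48 and cholangiocyte genes -0.61, with no call by edgeR in any without the offset. With the offset the first and the third were -0.06 and -0.03, and edgeR called 1 cholangiocyte gene lower. At an unadjusted *p* under 0.05 these 5 lists had 1, 0, 0, 1 and 4 genes lower and 1, 3, 1, 0 and 0 higher, where 15.6% and 17.4% of all tested genes were. DESeq2 called 0, 0, 0, 0 and 3 lower and 1, 2, 1, 0 and 0 higher, where it called 9.86% and 10.4% of all tested genes. Genes of platelets, which also carry *Vwf* and *Pecam1*, were low, and of 7 only *Itga2b* (4.01 ± 0.594 and 2.89 ± 1.2 CPM) and *Pf4* (3.48 ± 0.620 and 1.70 ± 0.924 CPM) had enough counts to be tested. Neither was called by edgeR without the offset, and 1 was called lower with it. At an unadjusted *p* under 0.05, 1 was lower, and DESeq2 and limma-voom each called 1 lower. The log2 fold change of *Pf4* was -1.0 (edgeR with Benjamini-Hochberg adjusted *p* = 0.0536). Its part in the *Vwf* result was not tested.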

How the data were processed

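Liver mRNA of 11 mice was measured by bulk sequencing, 7 given vehicle and 4 given INT-767, grouped as in the sample labels. Stranded mRNA libraries were sequenced by the authors for 75 cycles on an Illumina NextSeq, and reads were aligned with STAR to GRCm38 (version 2.4.0 in the submitters' processing notes, another in the supplementary methods). The deposited values are raw counts of reads per gene, with no normalization. For the counting program and its strand setting the entry is: not given in the sources used here. No column of another sample was in the table. Nothing in the sources says that mice were pooled, and no library duplicated another (smallest median chi-square per gene 1.1, against 0.455 for copies).

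Counts were scaled by TMM factors and tested with edgeR 4.0.16 in R 4.3.3 (filterByExpr with minimum count 10 and minimum total count 15, glmQLFit robust, glmQLFTest, treatment as the only term), with Benjamini-Hochberg adjustment over 13880 genes and a threshold of 0.05. Intervals are the estimate ± 1.96 SE. For single markers an exact Mann-Whitney test (two-sided, 330 assignments) was run on the CPM values. GENCODE M21 (GRCm38) gave positions, merged exons, and the length and GC content of the longest transcript for 13835 tested genes, and a lowess (span 0.3) on both gave the offset. Promoter sequences came from RefSeq. CPM per kb divides by merged exon length, and likeness to *Stab2* and *Pecam1* and the tilts used log2(CPM + 0.5).

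The markers and all gene lists were chosen with earlier results of these data known, and 2 genes of the lists are not reported here and were left out of them. All 10 markers were named, up to 5 called genes of each list by smallest *p*, the 2 most abundant genes of lists with fewer than 2 calls, the 3 genes most like *Stab2* and *Pecam1*, the 5 reference genes, and other list members as values. *Lamb1*, *Fcgr2b*, *Mrc1*, *Gpr182*, *Flt4*, *Cd34*, *Fabp4*, *Vegfa*, *Angpt2*, *Adamts13*, *Cd209b*, *Wnt2*, *Col4a2* and *Cav1* were added after their values were seen. Alternatives were other scalings and filters, limma 3.58.1, DESeq2 1.42.0, a replicate block, the offset, each mouse left out and a threshold of 0.01, and the library sets by length tilt were added after the data had been seen. On simulated data of this design (13880 genes, 200 with a log2 change of 2) edgeR found 90.5% of the changed genes and called 7 others, and DESeq2 94% and 34. That change is larger than the estimate of any marker, and no tilt was simulated. These shares therefore do not measure how often a change of the markers' size would be found.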

Additional observations from a re-analysis of the deposited data

Results flagged for a closer look

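Among 114 checks of a gene within a group, over the 10 markers and 47 list genes named by the rule, 10 values stood far from the other mice of their group by Dixon's criterion, where chance flags about 1 in 20. Among the markers this was the *Vwf* level of INT-767 mouse 1, at 9.47 CPM, while INT-767 mice 2 to 4 had 4.42 to 5.10 CPM. Of the other sinusoidal genes, *Aass* was far above its group in vehicle mouse 1 (339 CPM) and in INT-767 mouse 2 (586 CPM), *Dpp4* in INT-767 mouse 2 (280 CPM) and *Tfpi2* in vehicle mouse 1 (61.9 CPM). *Nr2f2* was far below its group in vehicle mouse 3 (33.3 CPM). *Cd44* and *Pf4* were far above their group in INT-767 mouse 4 (43.6 and 3.07 CPM), and the B cell genes *Ms4a1* and *Cd79a* in vehicle mouse 6 (3.25 and 2.43 CPM). The libraries flagged more than once were vehicle mice 1 and 6 and INT-767 mice 2 and 4. The causes were not tested.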

How the results depend on the processing

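With 7 and 4 mice of widely differing levels, a marker could differ without passing the threshold, each set of libraries by tilt holds 2 INT-767 mice, and counting error is part of the spread of low genes such as *Vwf*, with 32, 33 and 68 counts in INT-767 mice 2 to 4. Over all tested genes, 700 were called higher and 649 lower, and of the markers 0 higher and 1 lower. DESeq2 called 1443 and 1368, with 3 markers lower. limma-voom with sample weights called 1658 and 1221, with 4 markers lower. The GC content and length offset gave 1073 higher, library size alone 331 higher and 1026 lower, and a threshold of 0.01 gave 158 higher, 87 lower and 0 markers. The 7 libraries of higher tilt gave 856 higher and 879 lower, with 2 markers lower, and the 4 of lower tilt 130 higher, 94 lower and 0 markers. Replicate numbers did not pair the mice (correlations of same-numbered mice -0.69, 0.215, 0.148 and -0.482, each INT-767 mouse being closest to vehicle mouse 5 or 1). With the replicate block, edgeR called 0 genes higher, 0 lower and 0 markers, with 1347 genes and 1 marker at an unadjusted *p* under 0.05, and with block and offset together 0, 0 and 0, with 1681 genes and 1 marker. Vehicle mice 5, 6 and 7 share their number with no INT-767 mouse, so they did not inform the difference in these fits. Few degrees of freedom were left, so that the loss of calls says little about the markers. Leaving out each mouse in turn gave 164 to 1906 genes higher, 110 to 1370 lower, and 0 to 4 markers lower. The counts were 1906 and 1370 without vehicle mouse 1, with *Stab1*, *Stab2*, *Vwf* and *Plvap* called, and 164 and 110 without INT-767 mouse 2. They were 1007 higher without INT-767 mouse 1 (with *Vwf*, *Pecam1* and *Plvap* called), 429 and 383 without vehicle mouse 3, 375 and 392 without vehicle mouse 4, 336 and 284 without vehicle mouse 5, 306 and 267 without vehicle mouse 6, and 461 higher without INT-767 mouse 4. By the exact Mann-Whitney test 3 markers passed, 5 with library size alone and 1 to 5 with 1 mouse left out. Over the markers and the list genes named by the rule, 1149 comparisons of a log2 fold change kept direction and side of the threshold, 124 lost and 48 gained a call, and 41 changed sign, none of them for a called gene. With library size alone *Clec4g* was -0.020, *Oit3* -0.11, *Cxcl12* -0.088, *Egfl7* -0.18, *Esam* -0.026 and *Ms4a1* -0.16. With the offset *Ptprb* was 0.18, *Kdr* 0.019 and *Ms4a1* -0.34, and with block and offset *Ptprb* was 0.15, *Kdr* 0.12 and *Nr2f2* 0.024. With the block alone *Cd79a* was 0.035 and *Tfpi* 0.045. *Ms4a1* was -0.010 by limma-voom and -0.73 with sample weights, *Hbb-bs* -0.11 and *Tfpi* 0.011 with sample weights, and *Egfl7* -0.038 with upper-quartile factors, -0.025 with at least 10 counts in every mouse and -0.049 with sample weights. With 1 mouse left out, estimates ran from -0.021 to 0.35 for *Clec4g*, from -0.20 to 0.14 for *Tfpi*, from -0.80 to 0.45 for *Ms4a1*, from -0.35 to 0.11 for *Cd79a*, from -0.074 to 0.64 for *Hbb-bs* and from -0.18 to 0.16 for *Egfl7*. In the 7 libraries of higher tilt *Lyve1* was 0.003, *Clec4g* -0.052, *Hbb-bs* -0.31 and *Egfl7* -0.10, and in the 4 of lower tilt *Cd79a* was 0.47, *Itga2b* 0.011 and *Egfl7* -0.004. *Cdh5* alone was lower by 0.45 with INT-767 on the log2 scale, where the mean of the 5 reference genes was lower by 0.28, so that every marker shifted up by the same amount relative to it, *Oit3* from 0.42 to 0.58, *Pecam1* from -0.52 to -0.36, and *Ptprb* and *Kdr* from -0.05 and -0.04 to 0.11 and 0.12. The causes were not tested.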
